A study of Bos taurus with 6 samples.

Results

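Adipokines are hormones and other signalling proteins that fat cells release into the blood or the surrounding tissue. The genes described here are 9 genes of that system, taken by symbol from the 25444 genes of the mRNA count table. They were ADIPOQ, LEP, RETN, AGT and NAMPT, which encode secreted proteins, and LEPR, ADIPOR1, ADIPOR2 and CDH13, which encode receptors or binding proteins. All 9 were in the table and all 9 had a count in at least 1 of its libraries.

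The counts came from intramuscular fat (IMF) dissected from the sternomandibularis muscle of Chinese Qinchuan males aged 24 months. Steers (labelled CM, castrated) had been castrated surgically at 6 months of age, and bulls (labelled IM, intact) had not. Both groups were weaned at the same age and fed alike, and per the methods shared a sire. Each group was represented by 1 library of pooled RNA, with 6 animals per pool in the series' design text and 3 in the sample descriptions, so there was no replicate check and the spread between animals was not measured. The study asked which genes differ in IMF between steers and bulls.

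Adiponectin (ADIPOQ) is secreted by mature adipocytes as trimers and larger multimers. It raises insulin sensitivity through 2 seven-pass membrane receptors, ADIPOR1 and ADIPOR2. It also binds T-cadherin (CDH13), a lipid-anchored cadherin that holds the multimers at the cell surface. Leptin (LEP) reports the size of the fat stores to the brain and acts through LEPR, a cytokine receptor that signals by JAK2 and STAT3. Resistin (RETN) is a small cysteine-rich protein made by adipocytes in mice and mainly by myeloid cells in humans. Angiotensinogen (AGT) is the precursor of angiotensin II, and NAMPT (visfatin) is the rate-limiting enzyme of the NAD salvage pathway and is also found outside cells.

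The raw counts summed to 12677375 in steers and 9868415 in bulls, and the 9 genes took 0.171% and 0.182% of them. To make the libraries comparable, counts were divided by median-of-ratios size factors (steers 1.04, bulls 0.959), and a fold change, given mostly as its log2 value (log2FC), is the ratio of scaled counts, steers over bulls. A gene was called when an exact binomial test (two-sided) had an adjusted p under 0.05 over the 17752 genes with a count and the absolute log2FC was over 1. This test compares the 2 libraries, not the conditions, and the 95% Clopper-Pearson intervals given with fold changes cover counting error only. Transcript lengths were not used here, so a larger count of 1 gene than of another is not a higher expression level. Markers of the tissue were checked with a list of 9 adipocyte genes. The 8 in the table summed to 30097 counts in steers and 31896 in bulls, with ADRB3 at 0 and 2. Skeletal muscle RNA was also present, with 28418 and 41068 counts over 8 marker genes.

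Of the 9 genes, 0 were called higher and 1, RETN, was called lower in steers. Over all genes, 4.37% were called higher and 8.13% lower. Without the fold threshold, ADIPOR1, ADIPOR2 and CDH13 passed as higher and ADIPOQ, NAMPT and RETN as lower, against 19.9% and 18.3% of all genes. The adjusted p (exact binomial test between the libraries) was 2.3e-133 for ADIPOQ, 3.2e-122 for CDH13, 1.6e-89 for ADIPOR2, 3.0e-05 for NAMPT and 0.000359 for ADIPOR1. For AGT it was 0.826, for LEP 0.927 and for LEPR 0.973. Counting depth sets much of such a count. Of the 7 members with at least 100 counts, the interval lay above 0 for 3 and below 0 for 2, compared with 32.6% and 26.2% of the 10464 genes at that depth. The shares over the members thus lay near those of other well-counted genes. The median log2FC of the 9 genes, with a prior of 0.5 counts, was 0.04, beside 0.01 for all genes with a count and 0.04 for those with at least 100.

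**Figure D1:**
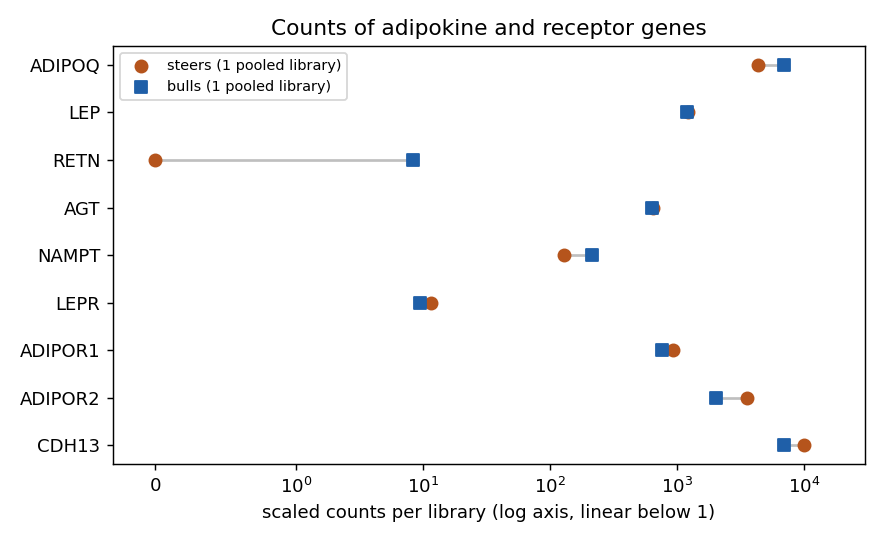
Scaled counts of the 9 genes (horizontal axis, logarithmic above 1 and linear below) in the pooled library of steers (circles) and of bulls (squares), with a grey line joining the 2 values of a gene. LEP, AGT and LEPR lie close together, ADIPOQ and NAMPT lie to the right in bulls, ADIPOR2 and CDH13 lie to the right in steers, and RETN is at 0 in steers.

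Among the secreted proteins, ADIPOQ had 4513 counts in steers and 6651 in bulls. Its log2FC was -0.68 (95% interval -0.74 to -0.63), or 1.60-fold lower in steers, which is below the fold threshold. Of the genes with at least 100 counts, 11.1% had a lower fold change. LEP, the other classical adipocyte hormone, had 1272 counts in steers and 1153 in bulls. Its log2FC was 0.02 (-0.10 to 0.14), so the scaled counts of LEP differed by no more than counting error, and LEP lay near the middle of the genes, with 47.9% below it. The 2 hormones therefore stood in a different proportion in each library. For each ADIPOQ count there were 0.282 LEP counts in steers and 0.173 in bulls, and this ratio was higher in steers by 0.70 on the log2 scale (exact conditional interval 0.57 to 0.83). Gene length and library scaling both cancel in that comparison.

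In bulk tissue, fewer adipocytes and less RNA per adipocyte cannot be told apart. ADIPOQ and LEP were therefore also set against the summed counts of the adipocyte genes PLIN1, PLIN4, CIDEC and LIPE, which encode lipid droplet proteins and a lipase. This sum was 23146 in steers and 22234 in bulls. Relative to it, ADIPOQ was at -0.62 (-0.68 to -0.56) and LEP at 0.08 (-0.04 to 0.20) on the log2 scale. The 4 genes did not move alike, since CIDEC was at 0.28, LIPE at -0.02, PLIN1 at -0.38 and PLIN4 at -0.48. Without CIDEC in the sum, LEP was at 0.30 and its interval no longer reached 0, whereas ADIPOQ was at -0.40. Other adipocyte genes also went in different directions between the libraries. CIDEA, a lipid droplet protein, rose from 136 counts in bulls to 998 in steers (log2FC 2.75). FABP4, a fatty acid carrier of adipocytes and also of macrophages, fell from 7574 to 3951 (-1.06). The part of macrophages in the FABP4 counts was not tested. The median of the adipocyte list was -0.23.

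RETN had 0 counts in steers and 8 in bulls. Taking 3 counts as the floor in steers, RETN was 2.90-fold lower there (adjusted p = 0.0167, exact binomial test), but counting error allows a smaller drop. The upper end of its interval was -0.89 on the log2 scale, inside the fold threshold, so the call rests on 8 reads. A count of 0 allows up to 0.237 CPM (counts relative to the library total) in steers, and RETN in bulls was at 0.811 CPM. Myeloid markers moved in the same direction: the 6 of 7 listed genes in the table summed to 13917 counts in steers and 25637 in bulls, and 4 of them (CD14, CD68, AIF1 and LYZ) were called lower. Of all 5 T lymphocyte markers, each was called lower, with 81 and 616 counts in sum. The part of these cells in the RETN counts was not tested.

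NAMPT had 134 counts in steers against 204 in bulls, and its log2FC was -0.73 (-1.05 to -0.41), or 1.66-fold lower in steers. It was not called, since its point estimate was inside the fold threshold, although the interval reached past it. NAMPT and ADIPOQ had the same direction, and their proportion differed by no more than counting error. There were 0.0297 NAMPT counts per ADIPOQ count in steers and 0.0307 in bulls, a log2 difference of -0.05 (-0.38 to 0.28). NAMPT is made by many cell types, myeloid cells included, so the lower myeloid counts given for RETN stand beside this value too, and their part was not tested.

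AGT had 678 counts in steers and 606 in bulls, or a log2FC of 0.04 (-0.12 to 0.20), which is within counting error. Most AGT of the blood comes from liver, and fat is a known local source. Of 5 liver markers, ALB had 0 and 1 counts and SERPINA1 had 0 and 4, so these defining hepatocyte genes were at or near 0 in both libraries. APOA1 of that list had 201 and 176 counts, and FGB had 4 and 18 and was called lower. TTR, the plasma carrier of thyroxine and of retinol with RBP4, was called higher with 339 and 22 counts (log2FC 3.82).

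**Figure D2:**
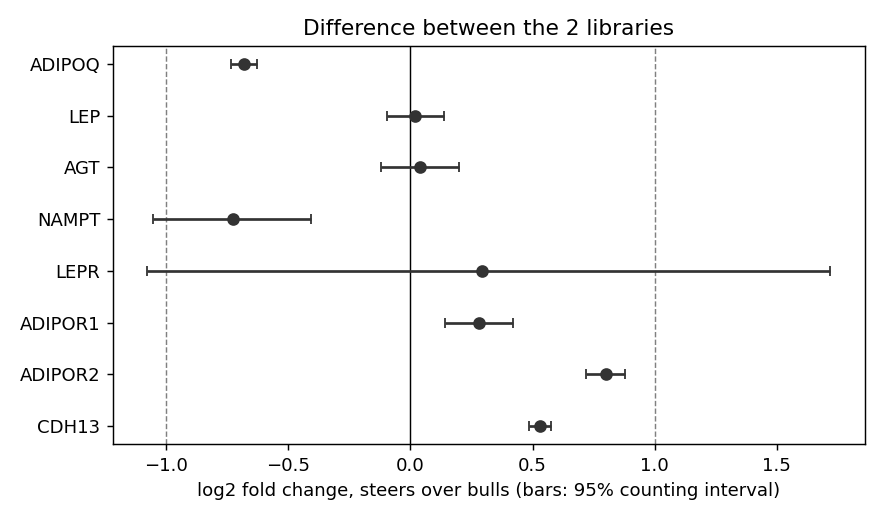
Log2 fold change of steers over bulls (horizontal axis) for the 8 genes with counts in both libraries, with 95% counting intervals as bars and the fold threshold of 1 as dashed lines. ADIPOQ and NAMPT lie below 0, ADIPOR1, CDH13 and ADIPOR2 above it, and the intervals of LEP, AGT and LEPR span it.

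The receptors and binding proteins of adiponectin all had higher scaled counts in steers, opposite to ADIPOQ itself. ADIPOR2 had 3700 counts in steers against 1953 in bulls, and its log2FC was 0.80 (0.72 to 0.88), or 1.74-fold. Of the genes with at least 100 counts, 94.1% lay below it, the highest position among the members. ADIPOR1 had 961 and 727 counts and a log2FC of 0.28 (0.14 to 0.42). The interval of ADIPOR1 did not reach 0 with median-of-ratios, TMM or upper-quartile scaling, but spanned 0 with total counts (0.04, -0.10 to 0.18). The receptors thus differed in proportion as well. There were 0.260 ADIPOR1 counts per ADIPOR2 count in steers and 0.372 in bulls, a log2 difference of -0.52 (-0.68 to -0.36). Set against the ligand, ADIPOR2 had 0.820 counts per ADIPOQ count in steers and 0.294 in bulls, a log2 difference of 1.48 (1.38 to 1.58).

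CDH13 had 10425 counts for steers and 6628 for bulls. Its log2FC was 0.53 (0.49 to 0.58), or 1.45-fold, with 86.6% of well-counted genes below it. Counts of CDH13 and ADIPOQ were nearly equal in bulls, at 0.997 CDH13 counts per ADIPOQ count, and stood at 2.31 in steers, a log2 difference of 1.21 (1.14 to 1.28). T-cadherin is found on endothelial cells, smooth muscle and stromal cells. The 6 endothelial markers summed to 9466 counts in steers and 8968 in bulls, with 0 called and a median log2FC of -0.17. The 6 smooth muscle and pericyte markers had a median of -0.51. Of these 1, DES (-1.26), was called lower, while TAGLN (0.45) and PDGFRB (0.05) lay above 0. DES is also expressed in skeletal muscle, whose 8 markers had a median of -0.66, with 3 above 0. The part of skeletal muscle in the DES counts was not tested. Of 7 stromal genes, 5 lay above 0 like CDH13, with a median of 0.55. COL3A1 (1.27) and COL1A1 (1.00) were called higher, COL1A1 not so with total counts or TMM, and these collagens made up most of the 826322 and 383476 summed counts. LUM was at 0.95, PI16 at 0.55 and DCN at 0.04, while PDGFRA (-0.48, -0.57 to -0.40) and DPP4 (-0.48, -1.38 to 0.39) went the other way. The part of these cells in the CDH13 counts was not tested. In RefSeq ARS-UCD2.0, a cattle assembly other than that of the counts, 2 long non-coding RNA genes and 1 pseudogene overlap CDH13 and 1 pseudogene overlaps ADIPOR2, and reads could not be split between them here.

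LEPR was scarce, with 12 counts in steers and 9 in bulls, or 0.947 and 0.912 CPM. Its log2FC was 0.29 with an interval of -1.08 to 1.72, so that neither a change of the fold threshold in either direction nor its absence was detectable at this depth. LEPROT, whose protein limits leptin receptor at the cell surface, had 839 and 844 counts and a log2FC of -0.13.

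**Figure D3:**
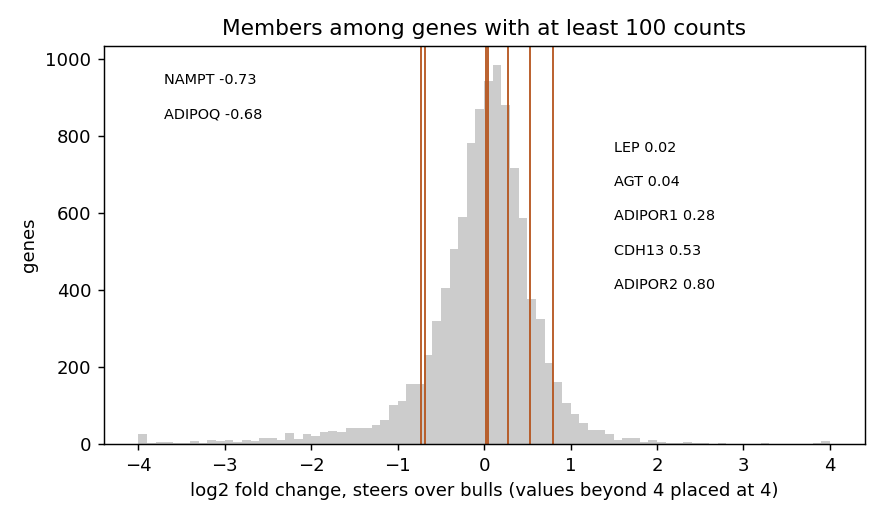
Number of genes (vertical axis) by log2 fold change of steers over bulls (horizontal axis, in bins of 0.1) for the genes with at least 100 counts in sum, with a line at each of the 7 members at that depth. NAMPT (-0.73) and ADIPOQ (-0.68) lie on the left side, LEP (0.02) and AGT (0.04) at the centre, and ADIPOR1 (0.28), CDH13 (0.53) and ADIPOR2 (0.80) on the right.

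The scaling of the libraries bears on these values. Total counts in place of median-of-ratios move each log2FC down by 0.24 and place the median of the genes counted in both libraries at -0.24. Relative to that median the values stay as given above, but against 0 they differ. ADIPOQ was then at -0.92, NAMPT at -0.97, CDH13 at 0.29 and ADIPOR2 at 0.56, with their directions kept. LEP came to -0.22 (-0.34 to -0.10) and AGT to -0.20 (-0.36 to -0.04), so that their direction was reversed. With that scaling, 21.2% of all calls were higher in steers, compared with 35.0% with median-of-ratios. The counts also do not hold the spread between animals. When an edgeR exact test was given an assumed coefficient of variation of 0.2 for the pools, 0 members were called, and the adjusted p in edgeR was 0.143 for RETN, 0.371 for ADIPOR2, 0.517 for ADIPOQ and 0.723 for CDH13. With 0.4 these were 0.689 for RETN and 1 for the others.

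**Figure D4:**
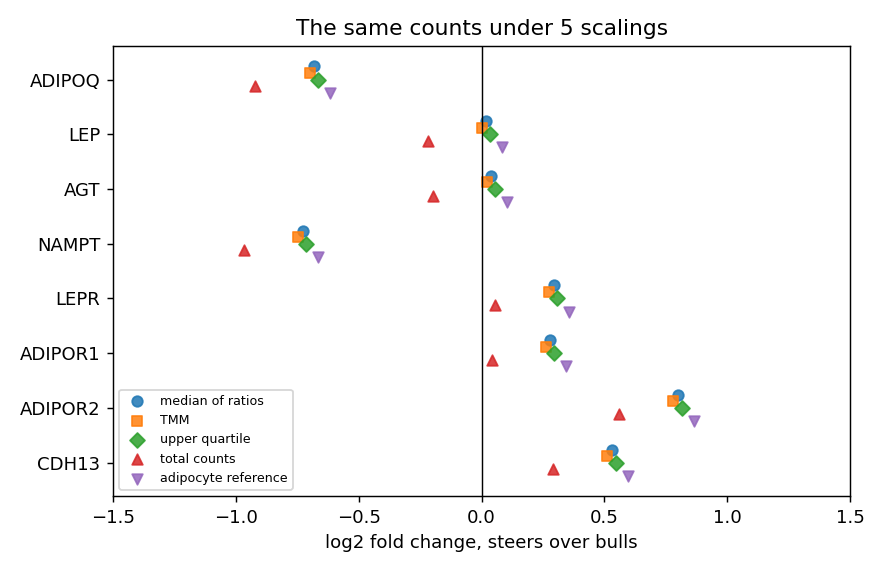
Log2 fold change of steers over bulls (horizontal axis) for the 8 genes with counts in both libraries under 5 scalings, 1 symbol for each. Total counts lie to the left of the other scalings and place LEP (-0.22) and AGT (-0.20) below 0, while ADIPOQ, NAMPT, CDH13 and ADIPOR2 keep their side.

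Genes around the members were described with lists written from general knowledge of each pathway, but with earlier results of these data known. Values below are counts of genes called in each direction and medians of the log2FC, to be read beside 4.37% called higher, 8.13% called lower and a median of 0.01 over all genes. Medians between 0 and 0.24 change sign with total counts. Of the calls named in these lists, SPARC, BMP7, C1QTNF6, STRA6, PAQR5, APLNR, CMKLR1, PLAUR, SOCS1, ACACB, MME, BDKRB2, CDH23 and IL6R were lost with an assumed coefficient of variation of 0.2, and with 0.4 only C1QL3, CD38 and IDO1 were still called. Among the cell type markers, FABP4, MYH1, COL1A1 and FGB were lost with 0.2. CIDEA, COL3A1, DES, MYH7 and TNNT1 were lost with 0.4, and TTR was kept. With 0.4, the myeloid markers called lower went from 4 to 1 and the T lymphocyte markers from 5 to 2.

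The C1q and TNF related proteins, which share the globular C1q domain of adiponectin, had 10 genes with a count. Of these 3 were called higher, 1 was called lower and the median was 0.18. C1QTNF1 had 8024 counts in steers and 3138 in bulls (log2FC 1.23, 1.17 to 1.29), and C1QTNF3, an antiinflammatory adiponectin paralog, had 5684 and 2151 (1.28, 1.21 to 1.35). These relatives were thus higher in steers where ADIPOQ was lower. C1QTNF6 was at 1.01 (0.82 to 1.20). With total counts C1QTNF1 (0.99) and C1QTNF6 (0.77) were no longer called, and C1QTNF3 (1.04) still was. C1QTNF6 was not called with TMM either. C1QL3 had 0 counts in steers and 62 in bulls. With 3 counts taken as the floor in steers it was 22.5-fold lower there, and its interval ended at -4.15.

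Other secreted proteins of fat had 21 genes with a count, 4 called higher and 2 lower, and a median of 0.35. PTX3, a pattern-recognition protein of innate immunity, rose to 2922 counts in steers from 718 in bulls (1.90, 1.78 to 2.02). APLN, the hormone apelin, had 13 and 0 counts. With 3 counts taken as the floor in bulls it was 3.98-fold higher in steers, and its interval began at 1.49. BMP7 (244 and 108 counts) and SPARC (273795 and 119373), a matrix protein, were called higher, but not with total counts. ANGPTL4, an inhibitor of lipoprotein lipase, fell from 773 to 120 counts (-2.81, -3.10 to -2.53), and the monocyte chemokine CCL2 fell from 47 to 6 (-3.09, -4.61 to -1.86). RBP4, the retinol carrier, was at 0.36 and was not called. CCL2 moved with the myeloid markers, and SPARC, C1QTNF1, C1QTNF3 and C1QTNF6 had the direction of the collagens COL1A1 and COL3A1 but not of the stromal marker PDGFRA. The part of these cells was not tested.

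Of 21 receptors of other adipokines with a count, 3 were called higher and 3 lower, and the median was -0.13. STRA6, the receptor of RBP4, had 20 counts in steers and 3 in bulls (2.61, 0.86 to 5.01). APLNR, the apelin receptor, had 49 and 14 (1.69), so that the ligand and the receptor of the apelin pair were both called higher, the receptor not so with an assumed coefficient of variation of 0.2. PAQR5, a relative of the adiponectin receptors that binds progestins, had 23 and 6 counts (1.82, 0.48 to 3.40), whereas PAQR6 of the same family, with 685 and 484 counts, was at 0.38. Of the chemerin receptors, CMKLR1 (150 and 289 counts, -1.07) and CCRL2 (13 and 50 counts, -2.07) were called lower, and CMKLR2, listed as GPR1 (142 and 164 counts, -0.33, -0.66 to 0.0030), was not. PLAUR was called lower (142 and 265 counts, -1.02). LRP1, a scavenger and signalling receptor, was at 0.46. With the assumed variation of 0.2, CCRL2 alone of these 6 calls was left.

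For leptin receptor signalling, 2 of 23 genes with a count were called lower, 0 were called higher and the median was -0.09. Both were suppressors of cytokine signalling, which JAK and STAT pathways induce as feedback. SOCS3 had 69 counts in steers and 233 in bulls (-1.88, -2.29 to -1.48) and SOCS1 had 14 and 38 (-1.56, -2.56 to -0.65). The kinase JAK2 was at -0.14, STAT3 at 0.05 and MAPK3 at 0.04. In a list of relatives of the leptin and resistin families, their cytokine receptors included, 2 of 12 genes with a count were called lower, IL6R at -1.15 (273 and 558 counts) and IL12RB1 at -4.93 (1 and 28 counts). The shared chain IL6ST was at 0.04 and the list median at -0.68. The myeloid and T lymphocyte markers given with RETN were also lower in steers, and their part in the SOCS3, SOCS1, IL6R and IL12RB1 counts was not tested.

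For assembly and signalling of adiponectin, 1 of 25 genes with a count was called, ACACB, the acetyl-CoA carboxylase that AMPK inhibits, with 72 counts in steers and 135 in bulls (-1.03, -1.46 to -0.61). The median was -0.05. HSPA5, an endoplasmic reticulum chaperone, was at 0.88 (0.80 to 0.97). ERP44, which retains adiponectin for multimer assembly, was at -0.08, the receptor adaptor APPL1 at 0.32 and the AMPK subunit PRKAA1 at -0.03. Among 20 regulators of ADIPOQ and LEP transcription, 1 was called, the stress factor ATF3, which represses ADIPOQ, with 62 and 364 counts (-2.68, -3.09 to -2.28). ATF3 and ADIPOQ were both lower in the steers library, and a link between them was not tested. PPARG was at 0.32, CEBPA at -0.83 and CEBPD at -0.57, and the list median was -0.12.

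The angiotensin system list had 18 genes with a count, 1 called higher and 3 lower, and a median of 0.19. ACE (597 and 450 counts, 0.29) and the angiotensin II receptor AGTR1 (565 and 307 counts, 0.76) were not called. The peptidase ANPEP fell from 1444 counts in bulls to 476 in steers (-1.72, -1.88 to -1.57), and MME, neprilysin, rose from 22 to 69 (1.53, 0.82 to 2.29). KLK1 (-2.64) and BDKRB2 (-1.29), of the kinin system, were called lower, and the aspartic protease CTSD was at 0.25.

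Among genes of NAD synthesis and use, to which NAMPT belongs, 1 of 20 with a count was called higher and 3 lower, with a median of 0.18. The NAD-consuming ectoenzyme CD38 had 2 counts in steers and 44 in bulls (-4.58, -7.67 to -2.64), and IDO1, which opens tryptophan breakdown toward NAD, had 23 and 375 (-4.15, -4.82 to -3.54). Both are expressed in immune cells, whose markers given with RETN moved the same way, and the part of these cells was not tested. NMRK2, listed under its older symbol ITGB1BP3, is a nicotinamide riboside kinase of muscle and was at -1.69 (244 and 722 counts). The skeletal muscle markers had a median of -0.66 but did not move alike. MYH7 (-2.23) and TNNT1 (-2.01) were called lower, MYH1 (1.15) was called higher, though not with total counts, and MYH2 was at 0.01. The part of muscle in the NMRK2 counts was not tested. NMNAT2 rose from 37 to 124 counts (1.62, 1.08 to 2.19). PNP was at 0.20.

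Among 17 cadherins and catenins, 0 were called higher and 2 lower, CDH8 (1 and 17 counts) and CDH23 (47 and 107 counts, -1.31), and the median was -0.21. CTNNB1, a catenin, was at 0.54. CDH13 itself, which lacks the catenin-binding tail of classical cadherins, was at 0.53, above the list median.

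**Figure D5:**
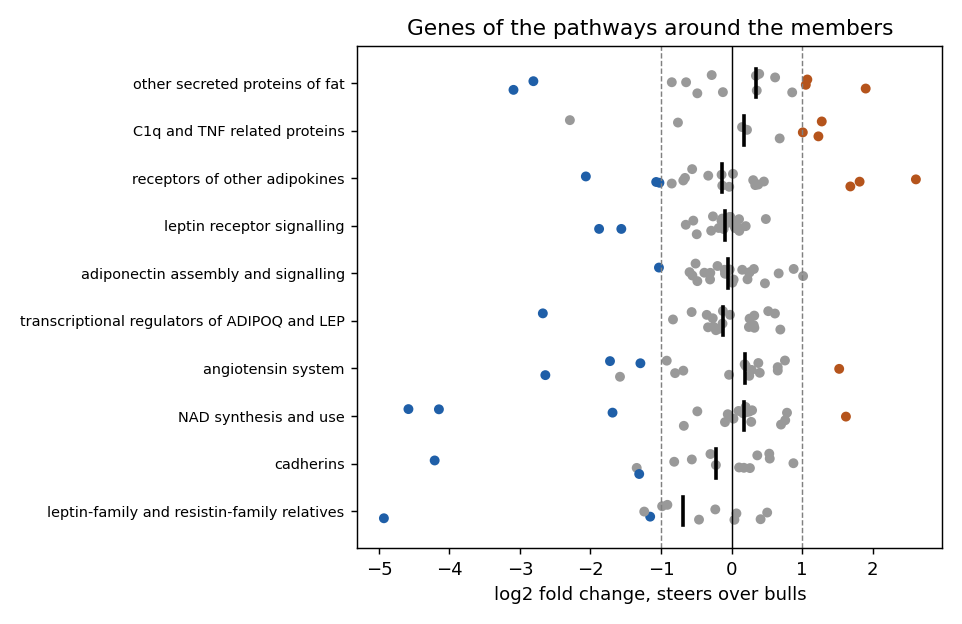
Log2 fold change of steers over bulls (horizontal axis) for genes of 10 lists (rows) with counts in both libraries and at least 10 in sum. Orange points were called higher, blue points lower and grey points neither, black bars are list medians over genes with a count, and dashed lines mark the fold threshold of 1. Except for the C1q and TNF related proteins, most points of each list lie between the dashed lines. The list medians lie from -0.68 to 0.35.

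Over these lists, the genes with at least 100 counts whose log2FC was nearest to that of ADIPOQ were LNPEP, TLR4 and NADSYN1, each within 0.01. Nearest to LEP were GRB2, CAP1 and APPL2, also within 0.01. With 2 libraries this likeness rests on 1 ratio per gene.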

How the data were processed

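RNA of IMF was sequenced on an Ion Proton instrument from 1 pooled library per group. The authors removed adaptors and low-quality reads, mapped the remainder with MapSplice to a bovine assembly and deposited raw counts per gene. The counting program, its use of strand and its treatment of multi-mapping reads are not given in the sources used here. The submitters' processing notes name GRCh37.p13, a human build, and BWA. The miRNA counts of the series were not used here.

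Counts were scaled with median-of-ratios factors and compared by an exact binomial test (smaller tail doubled) in scipy 1.17.1 and numpy 2.4.6 with Benjamini-Hochberg adjustment. EBSeq, used in the study, was not used here, and 1 library per group leaves no residual degrees of freedom for edgeR's quasi-likelihood test or DESeq2. Ratios within a library were compared as conditional odds ratios. TMM and upper-quartile factors and the exact test with an assumed coefficient of variation came from edgeR 4.0.16. The test was checked on data simulated with counting error only, so that check does not cover the spread between animals or pools.

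The members and lists were chosen with earlier results of these data known. Of 276 listed genes, 249 were in the table, 8 entries through an older or other symbol. PNPLA2, planned as an adipocyte reference gene, was not among them. Named from each pathway list were all called genes (up to 4, otherwise the 2 largest rises and falls) and the gene with the most counts summed over both libraries. From the lists of cell type markers, only some of the genes under this rule were named. BMP7, RBP4, APLNR, PAQR6, PLAUR, CMKLR2, LEPROT, JAK2, STAT3, ERP44, APPL1, PRKAA1, PPARG, CEBPA, ACE and AGTR1, and reference or marker genes outside that rule, were named for their roles after their values were seen. The value of a further list gene is not reported here.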

Additional observations from a re-analysis of the deposited data

How the results depend on the processing

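No paired analysis was possible because the mRNA comparison has 1 library per group, and no library could be left out. With an assumed coefficient of variation of 0.2 between pools, 368 genes were called higher and 762 lower in steers, and with 0.4, 52 and 93. With no fold threshold the calls were 3535 and 3254, and 3 members were called in each direction. RETN, the member called lower, was lost (0 members) with either assumed variation and where at least 10 counts in sum were required. Scaling by total counts reversed LEP (-0.22) and AGT (-0.20), while all other members kept their direction under TMM, upper-quartile, total-count and adipocyte reference scaling and with a prior of 5 counts. Relative to the adipocyte reference, LEP, at 0.08, came to -0.0047 without PLIN1 and -0.0038 without PLIN4, and the intervals of LEP (0.30) and AGT (0.32) cleared 0 without CIDEC. ADIPOQ, NAMPT, ADIPOR1, ADIPOR2 and CDH13 kept their direction and their intervals clear of 0 with each reference gene left out. The other two-sided form of the exact binomial test, added after seeing the data, gave 827 and 1509 calls and kept RETN. Depth limits LEPR and RETN most, and the spread between animals was not measured for any gene.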
